A study of Mus musculus with 16 samples.

Results

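The proteasome genes of these arrays were taken as every gene whose symbol begins with Psm, a family letter from a to g and a number, measured by a probe set that carries no other symbol. The rule gave 103 probe sets of 49 genes, of the 18193 genes that had such a probe set. Psme2 is not analysed here, because its probe set carries a second symbol. Each gene is given by its brightest probe set, that of highest mean signal over the 16 arrays.

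MC/9 is a mouse mast cell line. RNA was hybridised in 4 groups of 4 arrays. H2O2 exosomes are the vesicles released by MC/9 cells under oxidative stress from 125 µM hydrogen peroxide, normal exosomes are those released without the peroxide, and H2O2 cells and normal cells carry the matching cell labels. The sample labels describe the 2 cell groups as having received exosomes, whereas the study's methods treat them as the donor cells, exposed to the peroxide or to vehicle for 24 h, and the groups here follow the labels' conditions. All samples come from 1 cell line, the exosomes passed a 0.22 µm filter and were pelleted at 120000 g for 70 min, and the array's signals are MAS5.0 values, a linear brightness per probe set. The labels number the samples of each group without naming separate cultures, so p-values measure only the spread between these samples. A figure legend of the study gives different cell cultures for normal samples A and B, of cells and of exosomes, and does not say so of the others.

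The proteasome is the protease that removes most ubiquitin-tagged proteins. Its 20S core is a barrel of alpha and beta rings in which only the beta subunits PSMB5, PSMB6 and PSMB7 cut peptides, and in immune cells or after interferon these can be replaced by PSMB8, PSMB9 and PSMB10, which gives the immunoproteasome. The 19S cap binds tagged proteins and unfolds them with a ring of ATPases, while other activators, such as the interferon-inducible PSME1 and PSME2 pair, open the core without ubiquitin. Oxidised proteins are substrates of the proteasome, and the cap-free 20S core can degrade them without ubiquitin.

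By these roles the 49 genes comprised 7 alpha ring subunits, 4 non-catalytic beta subunits, the 3 standard catalytic subunits, the 3 immunoproteasome subunits, 6 ATPases and 11 non-ATPase subunits of the cap, 7 assembly chaperones, 3 activators and 1 inhibitor. Psma8, a testis subunit, and Psmb11, a thymus subunit, complete the core, and Psmc3ip and Psme3ip1 meet the rule by name although they are not subunits. Of all 49 genes, 27 had more than 1 probe set. A signal is called above background here when it passes the 95th percentile of 141 probe sets for genes of smell and taste receptors, hair keratin proteins and lens crystallins on the same array. In H2O2 cells and in normal cells 47 of the 49 genes were above background on all 4 arrays, and the exceptions in both groups were Psma8 and Psmb11.

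The promoters of 4 catalytic subunits are shown because their changes in the cells, described further on, differed. Each window holds 250 bases before the transcription start and 50 after it, from RefSeq on build GRCm38.p6, 5′ to 3′ on the gene's strand. The table held 44 windows for 41 of the 49 genes, some having more than 1 start. The capitals mark any match to TGACNNNGC or TGAGNNNGC, forms of the antioxidant response element bound by NRF1 and NRF2, to TTCNNNGAA, the interferon gamma activated site, to TTCNNTTTC, a core of the interferon-stimulated response element, or to CCAAT, searched on both strands. TTCNNNGAA reads the same on both strands, and the others were counted once per position.
Psmb5, chr14:54617946-54618245, minus strand: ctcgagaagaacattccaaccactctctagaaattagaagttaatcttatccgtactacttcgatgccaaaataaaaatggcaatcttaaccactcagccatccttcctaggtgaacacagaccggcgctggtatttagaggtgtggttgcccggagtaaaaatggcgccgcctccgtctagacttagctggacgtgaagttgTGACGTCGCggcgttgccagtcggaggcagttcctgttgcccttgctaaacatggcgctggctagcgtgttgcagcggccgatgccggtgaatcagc
Psmb6, chr11:70525107-70525406, plus strand: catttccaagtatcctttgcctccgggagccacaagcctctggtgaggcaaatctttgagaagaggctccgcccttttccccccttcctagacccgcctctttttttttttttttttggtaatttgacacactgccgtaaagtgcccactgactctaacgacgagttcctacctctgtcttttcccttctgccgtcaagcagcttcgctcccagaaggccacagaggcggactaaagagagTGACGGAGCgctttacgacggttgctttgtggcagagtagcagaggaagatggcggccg
Psmb8, chr17:34197945-34198244, plus strand: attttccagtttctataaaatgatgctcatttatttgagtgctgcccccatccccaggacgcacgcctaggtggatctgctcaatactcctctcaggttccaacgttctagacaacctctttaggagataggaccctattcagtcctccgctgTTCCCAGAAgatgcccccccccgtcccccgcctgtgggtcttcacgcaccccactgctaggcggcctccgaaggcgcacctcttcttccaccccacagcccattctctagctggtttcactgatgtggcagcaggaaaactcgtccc
Psmb9, chr17:34187281-34187580, minus strand: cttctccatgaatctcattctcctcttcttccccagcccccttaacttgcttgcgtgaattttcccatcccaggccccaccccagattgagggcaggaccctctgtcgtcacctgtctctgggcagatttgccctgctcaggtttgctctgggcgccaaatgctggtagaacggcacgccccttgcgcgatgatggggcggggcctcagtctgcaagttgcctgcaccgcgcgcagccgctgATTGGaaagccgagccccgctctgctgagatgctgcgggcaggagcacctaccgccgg

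The Psmb5 and Psmb6 windows each hold TGACNNNGC, whose first base lies 47 and 9 bases before the start. The Psmb8 window holds TTCNNNGAA, starting 97 bases before the start, and the Psmb9 window holds only CCAAT, on the opposite strand. The Psmb10 window holds none of the 5 motifs, and Psmb7 is not in the table. TGACNNNGC occurred in 6 of the 44 windows (13.6%), and in 12.4% of all 32851 windows. TGAGNNNGC occurred in 14 of the 44 (31.8%), against 17.6% of all windows. TTCNNNGAA occurred in 3 (6.82%) and in 8.30% of all, TTCNNTTTC in 7 (15.9%) and in 8.56% of all, and CCAAT in 16 (36.4%) and in 37.4% of all. These matches are letters in a window and were not tested as binding sites.

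Signals on exosome arrays need their own background. All arrays were scaled to the same trimmed mean of 100, which left the background at 232 to 257 on H2O2 exosome arrays and 203 to 273 on normal exosome arrays, against 10.8 to 14.3 on H2O2 cell arrays and 15.1 to 17.4 on normal cell arrays. Between 7.08% and 9.78% of probe sets were above it in H2O2 exosomes, 7.23% to 12.7% in normal exosomes, 47.4% to 50.4% in H2O2 cells and 47.1% to 49.1% in normal cells. The 3′ to 5′ signal ratio of Gapdh, a control for RNA degradation, was 1.48 to 2.33 in H2O2 exosomes and 1.43 to 1.77 in normal exosomes, against 0.836 to 0.884 in H2O2 cells and 0.823 to 0.841 in normal cells. That of actin was 2.77 to 4.48 in H2O2 exosomes and 3.81 to 6.55 in normal exosomes, against 1.30 to 1.55 in H2O2 cells and 1.41 to 1.46 in normal cells. The mean Gapdh ratio was thus higher and the mean actin ratio lower in H2O2 exosomes than in normal exosomes, and both ratios were higher in exosomes than in cells. All 8 mast cell markers examined, Fcer1a and Kit among them, were above background in both cell groups, and 2 of 8 in H2O2 exosomes and 6 of 8 in normal exosomes. Of the markers of T cells, B cells, macrophages and neutrophils, erythroid cells and fibroblasts, at most 1, 0, 2, 0 and 0 were above background on all 4 arrays of any group.

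The first comparison asked which proteasome genes differed between H2O2 cells and normal cells. Of the 49 genes, 29 were higher and 2 were lower in H2O2 cells (limma with Benjamini-Hochberg adjustment over 45037 probe sets, adjusted p below 0.05). Of all probe sets tested, 4.31% were higher and 5.51% lower, and of the 19001 above background on all 8 cell arrays, 9.93% were higher and 12.3% lower. Over all 103 member probe sets, 44 were higher and 4 lower in H2O2 cells. The median log2 change was 0.32 over the 49 genes and -0.15 over all probe sets. Among the 14 standard core subunits and 17 cap subunits, 26 of 31 were higher and none was lower, and all 31 had a fitted change above 0. Their median change was 1.35-fold, and the median within each of the 4 numbered pairs of samples lay between 0.35 and 0.48 on the log2 scale. With arrays scaled to the spiked hybridization controls, which moved the median of all probe sets to 0.15, 44 of the 49 genes were higher and none lower, where 14.3% of all probe sets were higher and 0.955% lower. With quantile normalization 29 were higher and 2 lower, where 4.54% of all were higher and 3.96% lower. In 28 of the 31 genes every H2O2 cell array lay above every normal cell array. How many of all probe sets separate in this way was not counted, so the 28 say nothing particular to these genes.

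The 3 standard catalytic subunits were all higher. Psmb5, the chymotrypsin-like subunit, had signals of 1019.5, 1047, 1045 and 1152 in H2O2 cells, against 741, 721, 813 and 769 in normal cells. Psmb6, the caspase-like subunit, had 842, 914, 947 and 928 in H2O2 cells, against 718, 622, 712 and 641 in normal cells. Psmb7, the trypsin-like subunit, had 2160.1, 2052, 2159 and 2279 in H2O2 cells, against 1659.8, 1313, 1470.4 and 1268 in normal cells. In each of the 3 genes the groups did not overlap. The log2 changes were 0.49 ± 0.06 for Psmb5, 0.43 ± 0.07 for Psmb6 and 0.61 ± 0.07 for Psmb7 (± SE, n = 4 each). The limma adjusted p was 5.0e-04, 0.0018 and 4.5e-04 in the same order.

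The immunoproteasome subunits were not among the higher genes under the deposited scaling. Psmb8, which takes the place of PSMB5, had 1779.9, 1958, 2104 and 1846 in H2O2 cells and 2219.8, 2114, 2267 and 2177 in normal cells. Every H2O2 cell array lay below every normal cell array, by a narrow margin. Psmb9, which takes the place of PSMB6, had 1084, 1089, 1313 and 997 in H2O2 cells and 1416, 1263, 1341 and 1287 in normal cells, and here the third H2O2 sample overlapped the normal group. Psmb10, which takes the place of PSMB7, had 747, 729, 735 and 718 in H2O2 cells and 682, 652, 733 and 673 in normal cells, with overlap. Under the deposited scaling Psmb8 fell by 0.19 and Psmb9 by 0.25 on the log2 scale (SE 0.06 and 0.07, limma adjusted p = 0.048 and 0.034), but with arrays scaled to the spiked controls the changes turned to 0.10 and 0.047. Psmb10 changed by 0.10 ± 0.06 (limma adjusted p = 0.35), and by 0.39 with the spiked scaling, where it was called higher (limma adjusted p = 0.0019). Leaving out sample number 1, 2 or 4 ended both calls, and leaving out number 3 ended that of Psmb8 (limma adjusted p 0.058 to 0.20 for Psmb8 and 0.011 to 0.17 for Psmb9 over the 4 omissions).

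A ratio of 2 genes on the same array is untouched by a single scaling factor for that array, though not by quantile normalization. Each immunoproteasome subunit was therefore also set against the standard subunit it replaces, a measure chosen after the values had been seen. The log2 ratio of Psmb8 to Psmb5 was lower in H2O2 cells than in normal cells by a difference of -0.68 ± 0.07 (SE, n = 4 each). The difference was -0.68 ± 0.08 for Psmb9 to Psmb6 and -0.51 ± 0.09 for Psmb10 to Psmb7. With quantile normalization the differences were -0.56, -0.53 and -0.48 for the same ratios in that order. In all 3 ratios every H2O2 cell array lay below every normal cell array. The two-sided exact permutation test gave p = 0.029 for each, the smallest that 4 against 4 arrays allow. After Benjamini-Hochberg adjustment over the 3 ratios it was 0.029. For Psmb8 to Psmb5 the separation was fixed in advance, since neither gene's groups overlapped and the genes changed in opposite directions. The p-values restate signals given above and add no support of their own. These ratios show unequal change within the arrays and not which member of a pair moved.

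**Figure D1:**
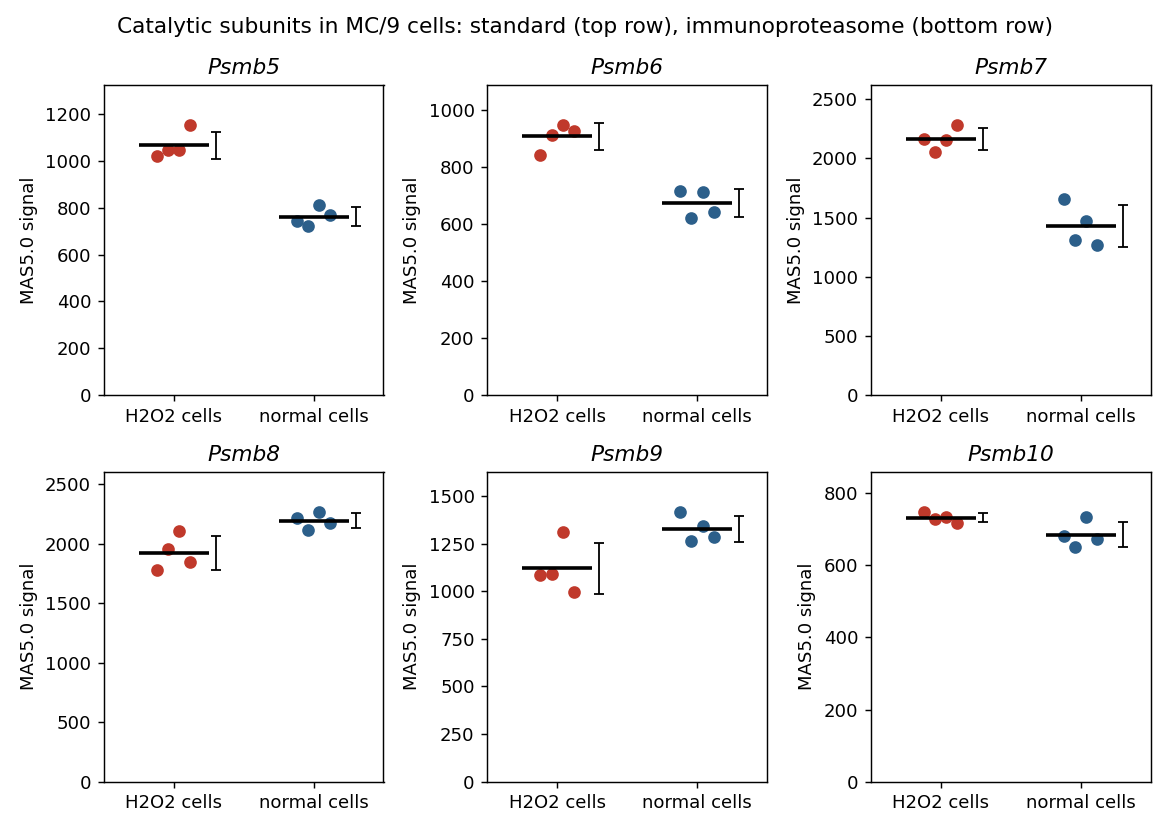
MAS5.0 signal (linear axis from 0) of the standard catalytic subunits Psmb5, Psmb6 and Psmb7 (top) and of the immunoproteasome subunits Psmb8, Psmb9 and Psmb10 (bottom) in H2O2 cells (left, red) and normal cells (right, blue). Points are arrays, horizontal lines group means and bars ± 1 SD of 4 arrays. The 3 standard subunits were higher on every H2O2 array, Psmb8 was lower on every H2O2 array under the deposited scaling (its change turned to 0.10 with the spiked scaling), and Psmb9 and Psmb10 overlapped.

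In the alpha ring, which gates the core, 4 of 7 genes were higher and 3 were not called. Psma5, the brightest member in normal cells, had 3224, 3199, 3438 and 2880.5 in H2O2 cells and 2686, 2215, 2729 and 2467 in normal cells, a log2 change of 0.34 ± 0.06 with no overlap (limma adjusted p = 0.0043). Psma2 changed by 0.32 ± 0.05 (adjusted p = 0.0022) and Psma6 by 0.23 ± 0.06 (adjusted p = 0.032). The 3 not called, Psma1, Psma4 and Psma7, had log2 changes of 0.15, 0.22 and 0.16 and limma adjusted p-values of 0.16, 0.073 and 0.065. Among the non-catalytic beta subunits, Psmb3 had 1572, 1673, 1719.7 and 1825 in H2O2 cells and 1122, 1052, 1159 and 1140.1 in normal cells, a change of 0.60 ± 0.05 (adjusted p = 1.3e-04). Psmb4 and Psmb2 changed by 0.46 ± 0.05 and 0.41 ± 0.06, with limma adjusted p of 3.1e-04 and 0.0010. Psmb1 had 0.11 ± 0.05 and was not called (limma adjusted p = 0.27).

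The 6 ATPases, which unfold substrates at the base of the cap, were all higher, with log2 changes of 0.41 to 0.97. Psmc4 had 528, 451, 899 and 545 in H2O2 cells, against 367, 290.3, 282 and 261 in normal cells. The third H2O2 sample stood above the other 3. Its change of 0.97 ± 0.15 (limma adjusted p = 0.0018) was the largest among the 31 core and cap genes, and 0.74 with adjusted p = 0.0016 without sample number 3. Its second probe set above background changed by 0.29, also called. Psmc5 had 755, 720.1, 669.7 and 812 in H2O2 cells and 459, 510.2, 488 and 498 in normal cells, and Psmc6 had 1083, 1074, 1086 and 1199 in H2O2 cells and 759.6, 727, 776 and 751 in normal cells. Neither gene's groups overlapped, and their changes were 0.59 ± 0.06 and 0.56 ± 0.06 (limma adjusted p = 3.5e-04 and 2.1e-04).

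Of the 11 non-ATPase cap subunits, 10 were higher, from 0.25 for Psmd11 to 0.55 for Psmd1, the large scaffold of the base. Psmd14, the deubiquitinase of the lid, had 1885, 1827, 1789.5 and 1814 in H2O2 cells and 1314, 1219.9, 1298 and 1358 in normal cells, without overlap (change 0.50 ± 0.05, limma adjusted p = 2.9e-04). Psmd4, a ubiquitin receptor, changed by 0.33 ± 0.06 (limma adjusted p = 0.0041). Psmd7 had 0.22 ± 0.07 and was the 1 cap gene not called (limma adjusted p = 0.080). Psmd14, Psmd4 and Psmd1 were picked for their roles after the values had been seen.

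Of the 7 assembly chaperones, which build the particle and leave it, 1 was higher and none lower. Psmd5 was higher by 0.28 ± 0.07 (limma adjusted p = 0.020), and the 6 others, Psmd9, Psmd10 and Psmg1 to Psmg4, were not called, with changes from -0.24 for Psmg4 to 0.32 for Psmd9. Whether chaperones and subunits differ was not tested. Among the activators, Psme3, a nuclear activator, had 291, 274, 258 and 289 in H2O2 cells and 220.3, 225, 210.2 and 204 in normal cells, without overlap. Psme3 and Psme4 were higher by 0.37 ± 0.07 and 0.26 ± 0.06 (limma adjusted p = 0.0074 and 0.022). Psme1, among the 6 brightest members, had 2114, 2152, 2289.6 and 2125 in H2O2 cells and 2246, 2173, 2157 and 2063 in normal cells, a change of 0.01 ± 0.05 (limma adjusted p = 0.96). Psmf1, an inhibitor of the 20S core, changed by 0.20 ± 0.10 (limma adjusted p = 0.28), and Psmc3ip and Psme3ip1 were not called.

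**Figure D2:**
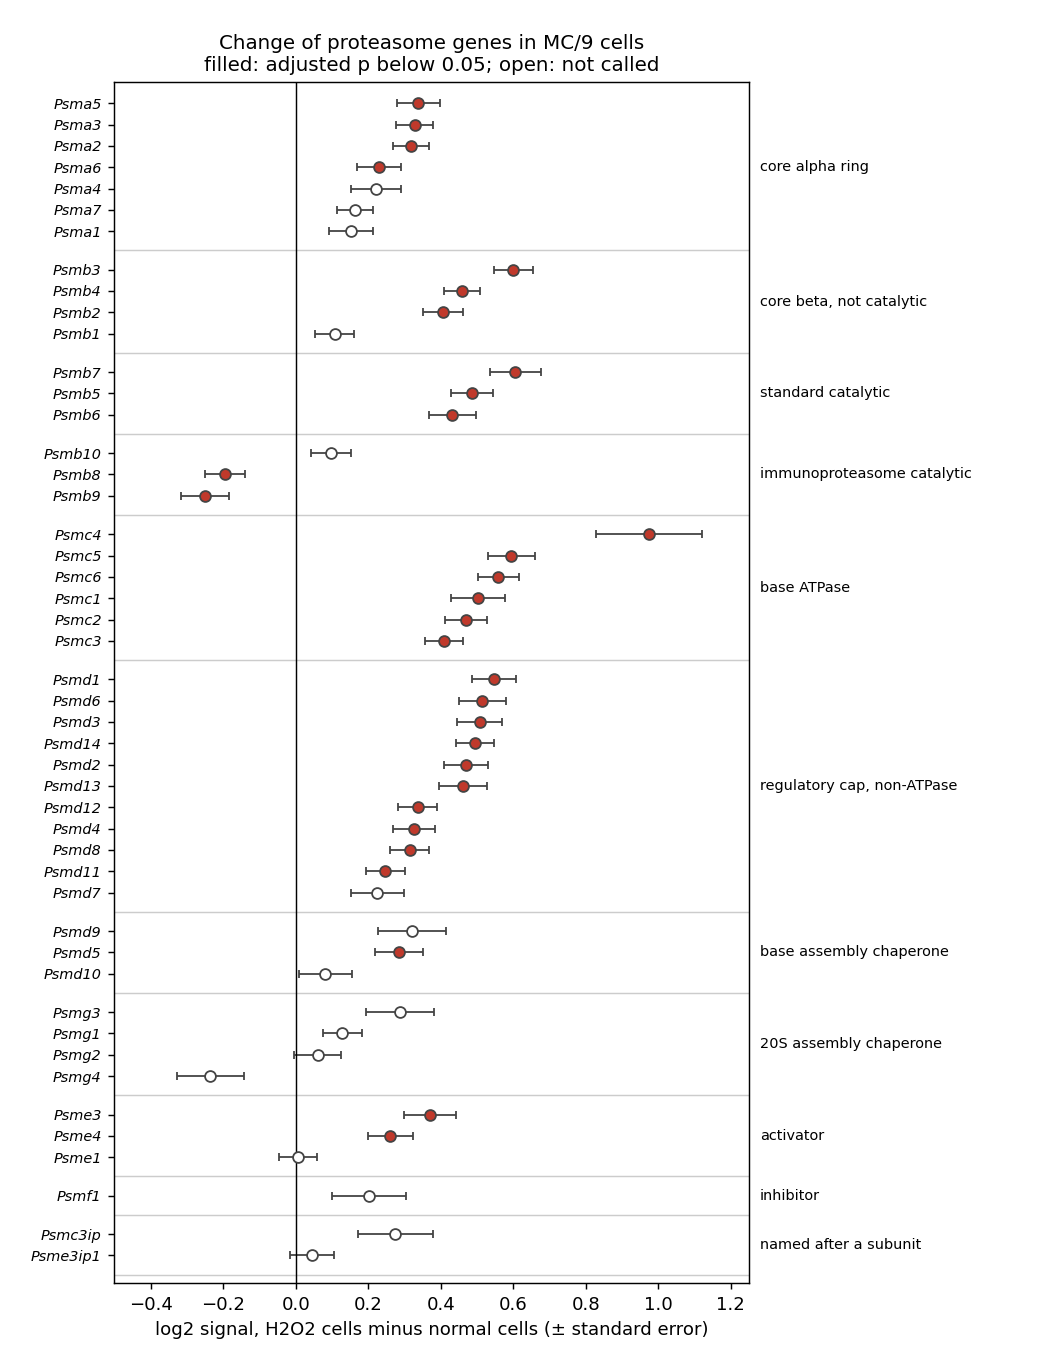
Difference in log2 signal, H2O2 cells minus normal cells, for the 47 proteasome genes above background on all 8 cell arrays, grouped by role, with bars of ± 1 standard error from limma. Filled points had an adjusted p below 0.05 and open points did not. All 6 ATPases and all 3 standard catalytic subunits lie right of 0, and Psmb8 and Psmb9, whose changes turned to above 0 with the spiked scaling, are the filled points left of 0.

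Other genes of the pathway were counted from lists, here and in the next paragraph. For comparison, of the 19001 probe sets above background on all 8 cell arrays, 9.93% were higher and 12.3% lower. With the spiked scaling 14.3% of all probe sets were higher and 0.955% lower. Of 13 measured cofactors and maturation factors, 6 were higher and none lower in H2O2 cells, with a median log2 change of 0.22 (10 higher with the spiked scaling, and 6 higher and 1 lower with quantile normalization). Pomp, the chaperone that matures the 20S core, had 1448, 1418, 1505 and 1520.4 in H2O2 cells and 1066, 991, 1046 and 1056 in normal cells, a change of 0.50 ± 0.05 (limma adjusted p = 2.3e-04). Uchl5, a cap deubiquitinase, and Sem1, a small lid subunit, were higher by 0.40 ± 0.07 and 0.24 ± 0.06 (limma adjusted p = 0.0052 and 0.021). Usp14, also a deubiquitinase of the cap, changed by 0.22 ± 0.10 (limma adjusted p = 0.21). Of 9 genes of the VCP segregase, which pulls tagged proteins out of complexes and membranes, 3 were higher and none lower (8 higher with the spiked scaling).

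Of 12 genes that control proteasome transcription, 1 was higher and 1 lower (5 higher and none lower with the spiked scaling). Ngly1, which deglycosylates NRF1 during its activation, was higher by 0.41 ± 0.05 and Stat3 fell by 0.40 (SE 0.06), while Nfe2l1, which encodes NRF1 and was called higher only with the spiked scaling, changed by 0.21 ± 0.11 (limma adjusted p = 9.5e-04, 0.0027 and 0.30). Of 14 genes of interferon signalling and MHC class I antigen processing, the setting in which Psmb8 and Psmb9 work, 6 were lower and 1 was higher, but with the spiked scaling none was lower and 1 was higher, and with quantile normalization 4 were lower. Under the deposited scaling the lower ones were Tap1, B2m, H2-K1, H2-D1, Irf1 and Irf9, with log2 changes of -0.46 to -0.32, and the higher one was Erap1. With quantile normalization the lower ones were Tap1, Tap2, Irf1 and Irf9. B2m, H2-K1 and H2-D1 lost their calls there (limma adjusted p = 0.052, 0.085 and 0.086). Tap1, a subunit of the peptide transporter, had 528, 529.8, 656 and 479 in H2O2 cells and 705, 729, 751 and 676 in normal cells, without overlap. Of 6 ubiquitin and E1 genes only Uba6 had a probe set of its own, and it was not called. Of the 8 mast cell markers 6 were lower and Hdc was higher in H2O2 cells (2 lower and 2 higher with the spiked scaling), and the summed signal of the 8 was 28289 to 33991 in H2O2 cells and 38204 to 41989 in normal cells. Their part in these results was not tested.

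The second comparison was between H2O2 exosomes and normal exosomes. Only 3 of the 49 genes, Psma3, Psma5 and Psmb3, were above background on all 4 arrays of H2O2 exosomes, and 7 on all 4 of normal exosomes, the same 3 with Psmb4, Psmd11, Psmd13 and Psmg1. Another 37 genes in H2O2 exosomes and 23 in normal exosomes were above background on no array. Of all probe sets, 3.08% were above background on all 4 H2O2 exosome arrays and 4.61% on all 4 normal ones. A further 84.8% were above it on no H2O2 exosome array and 81.9% on no normal one. No catalytic subunit, standard or immunoproteasome, was above background on all 4 arrays of either exosome group. Fewer vesicles carrying a transcript and fewer copies per vesicle cannot be told apart in such pooled RNA.

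Of the 49 genes, 2 were lower in H2O2 exosomes and none was higher, where 1.7% of all probe sets were lower and 0.0311% higher. Psmd13, a scaffold subunit of the lid, had 199, 120.2, 94.8 and 154 in H2O2 exosomes, none above background, against 479.5, 466, 341 and 416 in normal exosomes. The groups did not overlap, and Psmd13 was at least 1.70-fold lower in H2O2 exosomes, the background standing in for its signal there (fitted log2 difference -1.63 ± 0.31, limma adjusted p = 0.0078). Its next brightest probe set differed by -1.02 and was not called (limma adjusted p = 0.33). Psmg1, a chaperone of alpha ring assembly, had 225, 233, 272 and 166 in H2O2 exosomes, 2 of them above background, against 502, 649, 448 and 463 in normal exosomes. It was 2.31-fold lower without overlap (log2 difference -1.21 ± 0.27, limma adjusted p = 0.028). The Psmg1 call was lost under quantile normalization, under scaling to the spiked controls and without sample number 1, 2 or 4 (limma adjusted p 0.10, 0.093, 0.094, 0.16 and 0.12), while Psmd13 kept its call in these settings.

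The 5 other genes above background in normal exosomes were not called. Psmb4 had 109.6, 167, 132 and 121 in H2O2 exosomes, all below background, against 300.5, 316, 310.2 and 292 in normal exosomes, and did not overlap (log2 difference -1.22 ± 0.33, limma adjusted p = 0.096). A second Psmb4 probe set averaged 99.6 in H2O2 exosomes and 346 in normal exosomes, a log2 difference of -2.09 that was called (limma adjusted p = 0.017). Psma5 had 809, 802, 797 and 493 in H2O2 exosomes and 1041, 1022, 739.9 and 589 in normal exosomes, with overlap. Psma3, Psmb3 and Psmd11 also overlapped, with log2 differences of -0.18 ± 0.26, -0.57 ± 0.23 and -0.67 ± 0.24 (limma adjusted p = 0.88, 0.42 and 0.31). Over the 49 genes the median difference was -0.60, against 0.06 over all probe sets, and 37 of the 49 had a fitted difference below 0. These values include signals under background, and with signals floored at background the median was 0.10 over the 49 genes and 0.10 over all probe sets. Any gene under background on every exosome array takes that value from the backgrounds, so it measures no change. Of the 8 mast cell markers 4 were lower and none higher in H2O2 exosomes, with a summed signal of 1469 to 2081 in H2O2 exosomes and 3770 to 6190 in normal exosomes, and their part in these differences was not tested.

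Psmb8 and Psmb9 lay below background on all 8 exosome arrays. Psmb8 had 37.8, 91.6, 14.6 and 43.5 in H2O2 exosomes and 207, 138, 143 and 143 in normal exosomes, and Psmb9 had 20.1, 97.8, 15.5 and 48.3 in H2O2 exosomes and 217, 187, 101 and 129.8 in normal exosomes. The groups of neither gene overlapped, neither difference was called (limma adjusted p = 0.20 and 0.19), and no fold is given below background. Psmb5 and Psmb10 were above background on 1 normal exosome array each and on no H2O2 one, and Psmb6 and Psmb7 on none. A change of these transcripts in exosomes was not detectable at these signals.

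**Figure D3:**
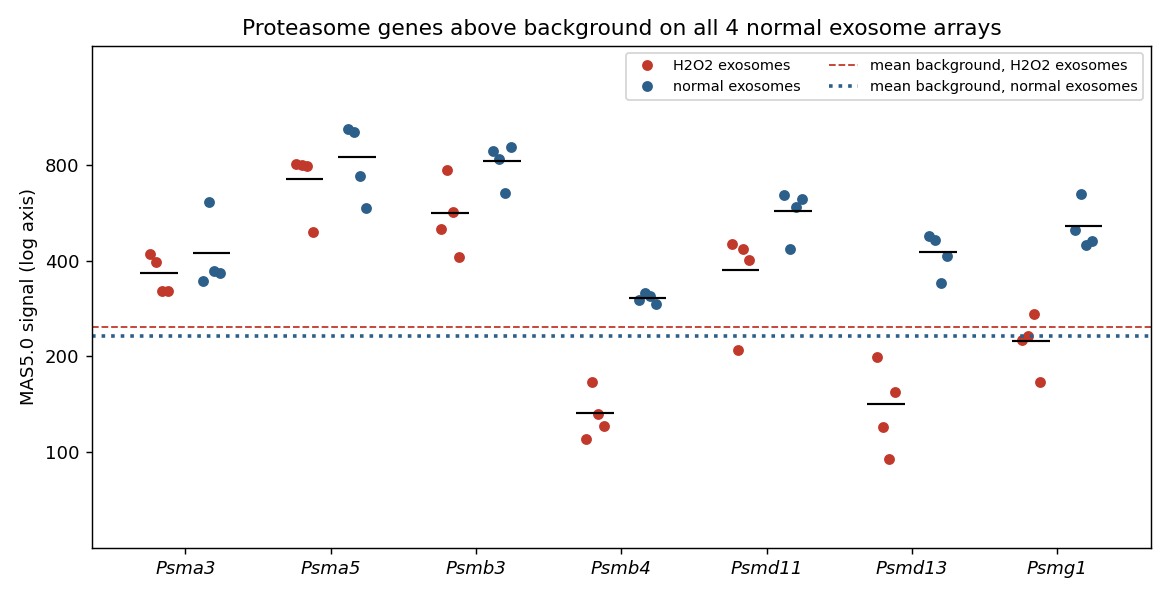
MAS5.0 signal (log axis) of the 7 proteasome genes above background on all 4 normal exosome arrays, in H2O2 exosomes (left of each pair, red) and normal exosomes (right, blue). Points are arrays, short lines group means, and the dashed and dotted lines the mean background of H2O2 and normal exosome arrays. Psmb4, Psmd13 and Psmg1 do not overlap between the groups, and Psmb4 and Psmd13 lie wholly below the line in H2O2 exosomes.

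The third pair of comparisons set exosomes against cells of the same condition, each fitted on its own samples. In H2O2 exosomes 45 of the 49 genes were lower and 2 higher than in H2O2 cells, where 19.4% of all probe sets were lower and 60.8% higher. In normal exosomes 43 were lower and 2 higher than in normal cells, where 19.0% were lower and 57.7% higher. Over all 103 member probe sets, 63 were lower and 21 higher in the H2O2 pair, and 60 lower and 22 higher in the normal pair. The counts of genes thus depend on keeping the brightest probe set of each. The 2 genes higher in each pair were Psma8 and Psmb11, below background in exosomes and cells alike. Of the lower calls, 2 in the H2O2 pair (Psmg3 and Psmf1) and 3 in the normal pair (Psmd9, Psmg3 and Psme3) allow no fold, since the cell signal did not exceed the exosome background. The background was 19.2 times as high in H2O2 exosomes as in H2O2 cells and 14.3 times as high in normal exosomes as in normal cells. The median log2 difference of the 49 genes was -2.98 in the H2O2 pair and -2.28 in the normal pair, while that of all probe sets was 2.67 and 2.23. With arrays scaled to the spiked controls the medians of the 49 genes were -7.36 and -6.39 and those of all probe sets -1.71 and -1.88, and with quantile normalization -3.25 and -2.35 against 0.20 and 0.16. The 49 genes had the lower median under each of the 3 scalings. The sets compared were unlike in cell signal. In each cell group 47 of the 49 genes were above background on all 4 arrays. Of all probe sets, 44.1% were so in H2O2 cells and 43.6% in normal cells. Each gene was also given by its brightest probe set. Other probe sets bright in cells were not compared, so these counts and medians do not set the 49 genes apart from them.

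Where no exosome array was above background, only a bound can be given. In H2O2 exosomes such bounds ran from at least 1.12-fold to at least 10.3-fold lower than in H2O2 cells over 31 genes, and in normal exosomes from at least 1.13-fold to at least 9.50-fold lower than in normal cells over 17 genes. Psmb8 was at least 7.73-fold lower in H2O2 exosomes and at least 9.50-fold lower in normal exosomes than in the cells of the same condition. Psmb7 was at least 8.71-fold and 6.15-fold lower in the same comparisons, Psma7 at least 5.83-fold and 5.59-fold, Psmc3 at least 4.01-fold and 3.24-fold, and Psmc4 at least 2.36-fold and 1.29-fold. Psma2 was at least 9.45-fold lower in H2O2 exosomes, and in normal exosomes only 1 array was above background and no fold is given. All of these were called, with limma adjusted p from 1.7e-06 to 2.8e-04.

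Genes above background in exosomes lay below the cells by different amounts. Psmb3 averaged 565 ± 155 in H2O2 exosomes and 1697 ± 105 in H2O2 cells (SD, n = 4 each), and 822 ± 115 in normal exosomes and 1118 ± 46.5 in normal cells. The log2 differences were -1.62 ± 0.24 and -0.45 ± 0.18 (limma adjusted p = 2.8e-04 and 0.038). Psmd13 averaged 426 ± 62.7 in normal exosomes and 463 ± 29.5 in normal cells, a log2 difference of -0.13 ± 0.22 that was not called (limma adjusted p = 0.59). Psmg1 averaged 515 ± 91.9 in normal exosomes and 724 ± 31.5 in normal cells, a log2 difference of -0.50 ± 0.20 (limma adjusted p = 0.040). Psma5 averaged 848 ± 221 in normal exosomes and 2524 ± 236 in normal cells, a log2 difference of -1.61 ± 0.19 (limma adjusted p = 9.5e-05). These signals are relative to the trimmed mean of each array and give no amount of RNA.

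**Figure D4:**
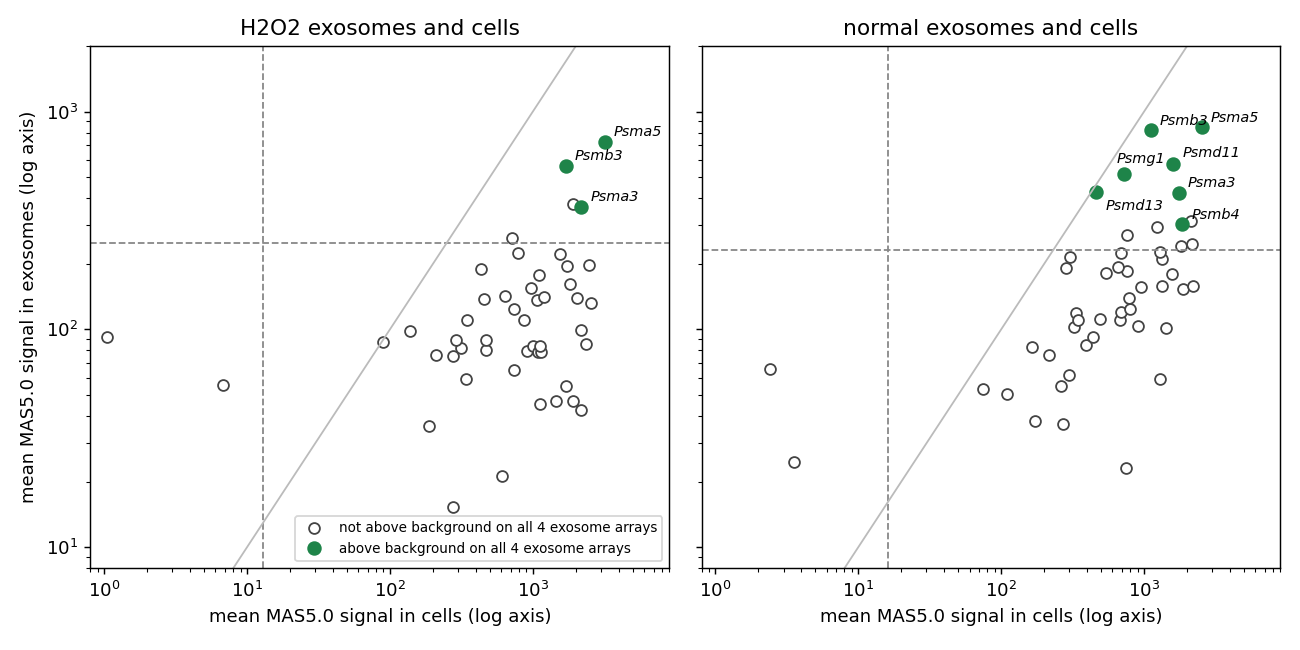
Mean MAS5.0 signal of the 49 proteasome genes in exosomes (vertical log axis) against cells (horizontal log axis), for H2O2 (left) and normal samples (right). Dashed lines are the mean backgrounds, the grey diagonal marks equal signal, and filled points are genes above background on all 4 exosome arrays. Of 49 genes, 3 are filled in H2O2 samples and 7 in normal samples, and Psma8 and Psmb11 lie below both backgrounds.

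The last comparison asked whether the H2O2 difference was itself different in exosomes and in cells. For 5 of the 49 genes the change in exosomes was lower than that in cells and for none higher, where 1.47% of all probe sets were lower and 0.0933% higher. The 5 differences of log2 changes were -2.09 ± 0.28 for Psmd13, -1.68 ± 0.23 for Psmb4, -1.34 ± 0.26 for Psmg1, -1.32 ± 0.23 for Psme1 and -2.62 ± 0.57 for Psme3, with limma adjusted p of 0.0070, 0.0073, 0.029, 0.017 and 0.048. The fit used 1 spread for exosome and cell differences. All 5 SEs were below those of the exosome changes alone (0.33 for Psmb4, 0.39 for Psme1 and 0.97 for Psme3). These SEs and p-values may thus be too small. In exosomes alone Psmb4, Psme1 and Psme3 were not called (limma adjusted p = 0.096, 0.14 and 0.46). Psmd13 and Psmb4 lay under the background in H2O2 exosomes and above it in normal exosomes, while both were higher in H2O2 cells by 0.46 on the log2 scale. Psme1 had 126, 118, 57.3 and 95.3 in H2O2 exosomes, none above background, and 329.9, 249.9, 148 and 254 in normal exosomes, 3 above background. Psme3 was below background on all 8 exosome arrays, so its difference is not a measured change of the transcript. Of these 5 calls, 0 remained without sample number 1, 0 without number 2, 3 without number 3 and 2 without number 4, and Psmd13 and Psmb4 were among those kept without number 3 and without number 4. The difference for Psmb5 was -1.02 ± 0.30, for Psmb8 -1.82 ± 0.48 and for Psmb9 -1.88 ± 0.50, none of them called (limma adjusted p = 0.15, 0.11 and 0.11).

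Probe sets of the same gene were compared in the cells. Of 21 genes with at least 2 probe sets above background on all 8 cell arrays, 16 had changes of the same sign in every such probe set and 5, Psma1, Psma3, Psmb1, Psmd13 and Psme4, did not. In Psma3 and Psmd13 a dimmer probe set was called lower while the brightest was called higher. The dimmer set averaged 70.7 in H2O2 cells and 95.03 in normal cells for Psma3, and 71.2 in H2O2 cells and 110.04 in normal cells for Psmd13, whereas the brightest set averaged 2187 in H2O2 cells and 1740.4 in normal cells for Psma3, and 637 in H2O2 cells and 463 in normal cells for Psmd13. A second probe set of Psmb8 and one of Psmb4 changed in the same direction as the brightest, by -0.25 and 0.47. The direction of the Psma3 and Psmd13 changes thus depended on the probe set.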

How the data were processed

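The deposited table holds MAS5.0 intensity values, which the authors computed with GCOS 1.2 per the submitters' processing notes and scaled to a trimmed mean of 100 (2% left out at each end), without detection calls. RNA of 16 samples was hybridised to Affymetrix mouse arrays with 45101 probe sets, of which 64 controls were left out. Of the 45037 tested, 34945 carried 1 gene symbol in the platform annotation, 932 several and 9160 none. Signals were put on the log2 scale and tested with limma 3.58.1 in R 4.3.3 (lmFit, eBayes with trend), with the sample number as a block, since the study's methods name a paired test. Each comparison was fitted on its own 8 samples. The difference of changes was fitted on the 8 differences within numbered pairs, with 1 spread for exosomes and cells. P-values were adjusted over all 45037 probe sets and called below 0.05. The script was tested on simulated data.

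The members, gene lists, motifs and tests were chosen with earlier results of these data known. Genes named with values were the catalytic subunits, activators and inhibitor, the 6 brightest in normal cells, up to 5 largest changes in each direction per comparison, and set cofactors. Other names were chosen after their values were seen. Where no array of a group was above background, a fold is a bound against the mean background. The number of arrays limits the precision. Alternatives were other scalings, a floor at background, a filter, other probe sets, no block, the methods' paired test and the omission of each sample number.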

Additional observations from a re-analysis of the deposited data

Results flagged for a closer look

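The gap of 1 sample to the other 3 was examined in 51 groups of gene and condition, and 3 stood apart, where chance gives about 1 in 20. Psma5 was 493 in the fourth sample of H2O2 exosomes, against 797 to 809 in the others. Psma7 was 1319 in the fourth sample of normal cells, against 1282 to 1285 in the others, and Psmc6 was 1199 in the fourth sample of H2O2 cells, against 1074 to 1086.

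The H2O2 change differed between exosomes and cells by limma's test of the difference itself for 5 genes. In each the SE of that difference was smaller than the SE of the exosome change, so the test may call too readily. The log2 change was -1.63 in exosomes and 0.46 in cells for Psmd13 (difference -2.09), -1.22 and 0.46 for Psmb4 (difference -1.68), -1.21 and 0.13 for Psmg1 (difference -1.34), -1.32 and 0.01 for Psme1 (difference -1.32) and -2.25 and 0.37 for Psme3 (difference -2.62). These are fitted values and not measured changes where signals lay under background. Psmd13, Psmb4 and Psme1 were above it on no H2O2 exosome array, and Psme3 on no exosome array.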

How the results depend on the processing

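The 29 higher genes in H2O2 cells became 44 higher and none lower when arrays were scaled to the spiked controls, whose signal in H2O2 cells was 0.814 times that in normal cells, and the median of all probe sets moved to 0.15 against -0.15. With the deposited scaling the split was 29 higher and 2 lower. All 29 calls remained under that scaling, and 24 to 29 of them without 1 sample number (24 to 30 calls in all). The 2 lower genes became 0 under the spiked scaling, 0 to 1 without 1 sample number, and 1 by the methods' paired test at an unadjusted p below 0.05. That test gave 34 higher genes unadjusted and 0 after Benjamini-Hochberg in cells. It gave 10 lower genes in H2O2 exosomes against normal exosomes and 17 lower for the difference of changes, and 0 of each after adjustment. How many of all probe sets pass that test unadjusted was not counted, so its unadjusted counts say nothing particular to these genes. The 2 genes lower in H2O2 exosomes became 1 with quantile normalization and 1 with the spiked scaling, and 1 to 2 without 1 sample number. The 5 lower differences of changes became 3 with quantile normalization, 10 with the spiked scaling, 19 with a floor at background, 8 with a filter on dim probe sets and 0 to 4 without 1 sample number, of which 0 to 3 were among the 5. The lower calls over all probe sets moved too, from 662 to 239, 882, 1464 and 846 in the first 4 of these settings. With the floor, 5597 of all probe sets were called higher, against 42 with the deposited signals.

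Of the 43 genes lower in normal exosomes than in normal cells, 37 kept the call with the floor, 37 with quantile normalization and 40 to 41 without 1 sample number. Of the 45 lower in H2O2 exosomes than in H2O2 cells, 41 kept it with the floor, 39 with quantile normalization and 45 without any 1 sample number. With the floor, the median of the 49 genes in H2O2 exosomes against normal exosomes turned to 0.10. The 2 genes higher in normal exosomes than in normal cells became 0 with the spiked scaling, 4 with the floor, 0 with the filter, 0 by the paired test with and without adjustment, and 1 to 2 without 1 sample number. The 2 higher in H2O2 exosomes than in H2O2 cells became 1 with quantile normalization, 0 with the spiked scaling, 4 with the floor, 0 with the filter, 1 by the paired test with and without adjustment, and 1 to 2 without 1 sample number. Without the replicate block the calls numbered 31 higher and 2 lower in cells, 2 lower in exosomes, 45 lower (H2O2) and 44 lower (normal) for exosomes against cells, and 6 lower for the difference of changes. Over all probe sets that fit called 2133 higher and 2717 lower in cells and 718 lower in exosomes. It called 8759 lower (H2O2) and 8516 lower (normal) for exosomes against cells, and 764 lower for the difference of changes. Same-numbered samples deviated together in few pairs, so the block by number rests on the study's methods. The correlations were 0.45 and 0.21 in 2 exosome pairs and -0.02 in each of the other 2, and -0.05 to 0.08 in cells. Between exosomes and cells they were -0.21 to 0.05 in the H2O2 pairs and -0.09 to 0.06 in the normal pairs.

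Signs of single genes turned in these cases. In cells Psmb8 and Psmb9 had 0.10 and 0.047 with the spiked scaling, and Psme1 had -0.029 with quantile normalization and -0.020 to 0.038 without 1 sample number. Psma5 in exosomes had 0.41 with quantile normalization and its difference of changes 0.10. With the floor, Psme3 in normal exosomes against cells had 0.11, and Psmf1 had 0.50 in the normal and 0.40 in the H2O2 pair. Beyond what the scalings and omitted samples do by construction, the cause was not tested.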
